A study of Sus scrofa with 21 samples.

Results

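Cytosolic ribosomal protein genes encode the proteins that, with ribosomal RNA, build the large (60S) and small (40S) subunits of the ribosome outside mitochondria. They were taken here as every row of the count table whose pig symbol begins with RPL or RPS and a digit, together with RPSA, RPLP0, RPLP1 and RPLP2, while the 10 symbols of the RPS6K kinase family were left out. The rule found 51 of 24358 genes, of which 14692 carry a symbol. Among the 51, 26 belong to the large subunit and 25 to the small subunit. The standard ribosome accounts for 45 of them. The other 6 (RPL3L, RPL7L1, RPL10L, RPL26L1, RPL36AL and RPS27L) are paralogs, sister genes whose proteins resemble a standard subunit protein. A RefSeq gene table for the Sscrofa11.1 build holds 84 symbols that fit the rule, and 33 of these, RPS6, RPS19, RPS27, RPL13 and RPL39 among them, are not analysed here. Ribosomal protein genes have many near-identical processed copies in mammalian genomes, and RPL36A and RPL36AL are close relatives, so the counts of single genes are uncertain where reads could be split between copies.

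Ribosomal proteins are made in near equal numbers, 1 copy of most of them per ribosome, and their messenger RNAs are among the most abundant in growing cells. Most of these messengers begin with a terminal oligopyrimidine (TOP) tract, through which nutrient and growth signals acting on mTOR adjust their translation together. Free ribosomal proteins such as RPL5 and RPL11 bind MDM2 and so link faulty ribosome assembly to p53. Inherited loss of 1 copy of genes such as RPS19, RPS24, RPL5 or RPL11 causes Diamond-Blackfan anaemia, in which red cell precursors fail.

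The libraries came from total RNA of 3 pigs, with no treatment named in the labels. A 3D-printed microbrush, the endovascular sampling device under study, gave 10 libraries: 5 from kidney arteries and 5 from liver arteries, 5 each from pigs 243K and 248K. A bare Nitinol wire, the negative control, gave 4 libraries, 2 from each of these pigs. Whole blood gave 3 libraries, blood 1 and blood 2 from pig 243K and blood 3 from pig 248K. The positive control was 4 pieces of surgically removed aorta, all from pig 237053, so tissue and pig cannot be told apart in any comparison with aorta. Libraries of a group shared pigs, so the p-values below measure the spread between libraries, which may be partly technical, and not the spread between animals.

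Libraries held 1144932 to 10188552 counts on the microbrush, 1946286 to 11128400 on the wire and 1603229 to 3033008 in aorta. Blood 1 and blood 3 held 5301288 and 3224540 counts, and blood 2 only 5634. Blood 2 also went against its label: it had no count in any of the 51 genes or in any of the 7 red cell markers in the table (of 10 in the list), where a total of that size would hold 123 ribosomal protein counts at the share seen in blood 3. Its 0 counts allow a ribosomal protein share of up to 0.0532% (3 counts of the total). Counts of genes called by edgeR in comparisons with blood are therefore given with and without this library. Single genes are described from the fits without it unless stated, and none of the ribosomal protein genes passed edgeR's test with it. Microbrush 4 had 2428828 counts but only 3831 genes detected, and 15 of the 51 genes were at 0 in it. Smooth muscle markers took 3.53% to 5.68% of counts in aorta and at most 0.0665% in blood, and red cell markers took 3.90% and 4.22% in blood 1 and blood 3. Endothelial markers took 0.0216% to 0.0999% on the microbrush, 0.0247% to 0.0775% on the wire and 0.0131% to 0.0246% in aorta. Microbrush and wire thus overlapped. Another 2 gene identifiers, without a symbol, took 26.6% to 49.2% of all wire counts, 2.66% to 48.4% of microbrush counts and 5.34% to 8.34% of aorta counts. In blood 1 and blood 3 they took 6.37% and 4.33%. Such counts lower the unscaled share of every other gene in a library, most of all on the wire and in some microbrush libraries.

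Ribosomal protein genes took the largest share of the library in the 2 usable blood libraries. Their summed share was 2.72% of all counts in blood 1 and 2.18% in blood 3, against 0.639%, 0.644%, 0.449% and 0.989% in aorta 1 to 4. On the wire it was 0.559%, 0.659%, 0.563% and 0.548%, and on the microbrush it ran from 0.231% to 1.30% with a median of 0.463%. Blood 1 and blood 3 lay above each of the 18 other libraries with more than 0 counts in these genes, while microbrush, wire and aorta overlapped. The group means were 0.629% ± 0.381 (SD, n = 10) on the microbrush, 0.582% ± 0.0517 (SD, n = 4) on the wire, 0.680% ± 0.225 (SD, n = 4) in aorta and 1.63% ± 1.44 (SD, n = 3) in blood, or 2.45% ± 0.386 (SD, n = 2) without blood 2. The 95% Wilson interval was 2.71% to 2.74% for blood 1 and 0.369% to 0.392% for microbrush 10, the library with the fewest counts after blood 2, so counting error, which is all that these intervals cover, was small beside the spread between libraries. No test was made of this summed share. In bulk samples, fewer cells of a type and less RNA per cell cannot be told apart.

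**Figure D1:**
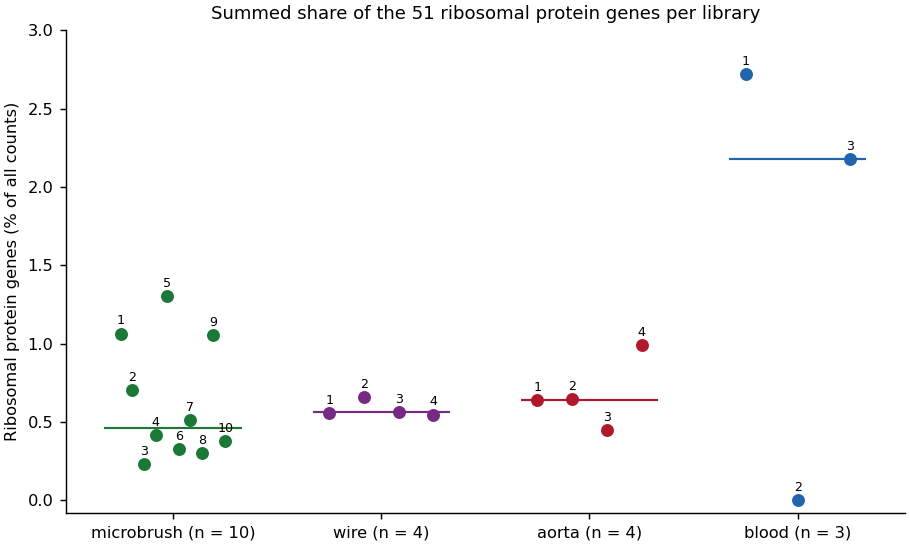
Each point is a library (its number beside it), the y axis is the share of all its counts that fell in the 51 ribosomal protein genes, in percent, and the lines are group medians. Blood 1 (2.72%) and blood 3 (2.18%) lie above all other libraries, blood 2 lies at 0, and the other groups overlap between 0.231% and 1.30%.

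The gene-by-gene comparison of aorta with blood gave the largest differences of any comparison made, and it turned on blood 2. With all 3 blood libraries no ribosomal protein gene of the 50 tested passed edgeR's quasi-likelihood test (background 1.49% of all genes tested), while the unadjusted p was under 0.05 for 3 of them. With DESeq2 the calls were RPL26L1 and RPL36A, beside 6.99% of all genes. Without blood 2, 44 of 50 were lower in aorta, 22 of 25 for each subunit, and none was higher. In that fit 28.5% of all genes passed in either direction, 18.7% lower and 9.82% higher in aorta. The median log2 fold change over the 50 genes was -2.14, beside 0.15 over all genes tested. With blood 2 it was -1.58, beside 0.35, and -0.39 where blood 2 was kept and blood 1 left out. On unscaled counts per 1000000 (CPM), which need no fit, all 4 aorta libraries lay below both blood 1 and blood 3 for 44 of the 51 genes (19.3% of all genes), above both for 1, RPS2 (14.7%), and overlapped them for 6. Red cell markers moved with this contrast: their summed share was 0.00540% to 0.00817% in aorta and 3.90% and 4.22% in blood. T and NK cell markers (8 of the list's 11 in the table) took 0.00698% to 0.0208% in aorta and 0.103% and 0.0863% in blood. B cell markers took 0.0128% to 0.0232% and 0.0708% and 0.0660%, and neutrophil and monocyte markers 0.00575% to 0.00738% and 0.0338% and 0.0279%. Of the last 6 markers, 2 had a fold change above 0 without blood 2. Smooth muscle markers, given above, went the other way. So did fibroblast markers, at 0.372% to 0.652% in aorta and 0.00149% and 0.00670% in blood. None of these markers was at 0 in all aorta libraries. The part of any of these cell types in the ribosomal protein difference was not tested.

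The difference was largest for RPS24, a small subunit protein needed for processing the precursor of 18S rRNA and a Diamond-Blackfan anaemia gene (chr14:80473867-80480818, Sscrofa11.1 from RefSeq). It stood at 175, 198, 134 and 176 CPM in aorta 1 to 4 and at 3082, 0 and 2331 CPM in blood 1 to 3. Every aorta library was thus far below blood 1 and blood 3 and above blood 2. The fold change on the log2 scale was -4.37 (SE 0.64, edgeR adjusted p = 2.17e-10) without blood 2 and -3.81 (SE 1.93, adjusted p = 0.44) with it.

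RPL37, a zinc-binding protein of the large subunit (chr16:25800883-25803526), followed closely. Its levels were 106.05, 124, 29.3 and 152 CPM in aorta and 1493, 0 and 1144 CPM in blood. On the log2 scale its fold change was -4.01 (SE 0.60, adjusted p = 6.11e-10) without blood 2 and -3.44 (SE 1.82, adjusted p = 0.481) with it.

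RPL36A, a large subunit protein encoded on the X chromosome (X:83018305-83022285), had 16.3, 23.0, 4.35 and 35.4 CPM in aorta and 328, 0 and 185 CPM in blood. Its log2 fold change was -4.06 (SE 0.50, adjusted p = 6.24e-14) without blood 2 and -3.46 (SE 1.55, adjusted p = 0.323) with it. For both genes the lowest library was aorta 3, and even the highest, aorta 4, was several times below blood 3. Next came RPS15A at -3.49 and RPS3A at -3.27, both small subunit proteins, without blood 2.

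Without blood 2, genes lower in aorta were found in every functional region of the ribosome that was looked at, beside the 18.7% of all genes that were lower in that fit. With blood 2 kept, no gene of these regions passed. The P stalk, the flexible arm of the large subunit that recruits elongation factors, consists of RPLP0 and of RPLP1 and RPLP2 dimers. RPLP0 (chr14:40219196-40223943) had 218, 199, 162 and 402 CPM in aorta and 888, 0 and 726 CPM in blood. All 3 stalk genes were lower in aorta without blood 2, at log2 fold changes of -2.01 for RPLP0 (SE 0.57, adjusted p = 0.00243), -1.72 for RPLP1 and -1.55 for RPLP2. All 3 genes that line the peptide exit tunnel and were tested also passed: RPL23A, at which the signal recognition particle docks, at -2.76, RPL4 at -1.96 and RPL35 at -1.71.

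The 5S ribonucleoprotein, made of 5S rRNA with RPL5 and RPL11, forms the central protuberance of the large subunit. RPL5 had 130.4, 158, 65.3 and 273 CPM in aorta and 687, 0 and 481 CPM in blood, and was lower in aorta without blood 2 at -2.22 (SE 0.55, adjusted p = 4.29e-04), while with it the value was -1.64 (SE 1.66, adjusted p = 0.795). RPL11 had 110.3, 87.0, 63.0 and 158.4 CPM in aorta and 200.1, 0 and 157.5 CPM in blood. Aorta 4 thus reached the level of blood 3, and the value of -1.08 (SE 0.50, adjusted p = 0.0883) did not pass without blood 2. Among 6 proteins at the mRNA path and decoding site of the small subunit, 5 were lower in aorta without blood 2, RPS28 at -2.45 and RPS3 at -1.66 among them, and RPS2 was not. Of the 9 Diamond-Blackfan anaemia genes tested, 7 were lower in aorta without blood 2, and RPS7 and RPL11 did not pass. With blood 2 kept, the smallest adjusted p was 0.795 for the 5S pair, 0.539 for the decoding site genes and 0.44 for the Diamond-Blackfan anaemia genes.

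**Figure D2:**
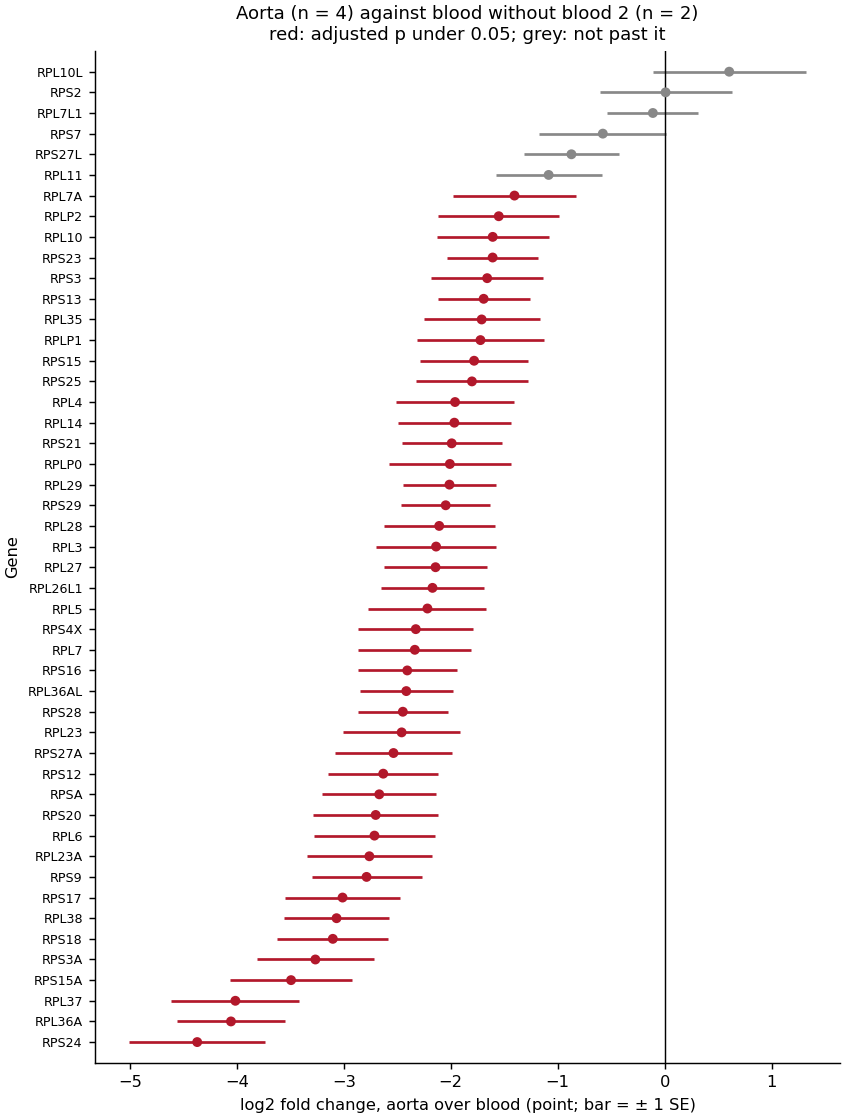
Each row is 1 of 48 ribosomal protein genes tested, the x axis is the log2 fold change of aorta (n = 4) over blood without blood 2 (n = 2), and bars are 1 SE on each side. The 42 genes in red passed at an adjusted p under 0.05, from -4.37 for RPS24 to -1.40 for RPL7A, and the 6 in grey did not.

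The 6 genes that did not pass without blood 2 were RPS2, RPS7, RPL11 and the paralogs RPL7L1, RPS27L and RPL10L. RPS2 (chr3:39996179-40003110), a small subunit protein near the mRNA entry channel, had 753, 925, 903 and 1054 CPM in aorta and 734, 0 and 729.9 CPM in blood. Its aorta libraries were thus all above those of blood on the unscaled scale, and the scaled log2 fold change was 0.01 (SE 0.62, adjusted p = 0.994). RPS7 (chr3:131258709-131263285), a small subunit protein that can bind MDM2, had 524, 564, 446 and 751 CPM in aorta and 646, 0 and 804 CPM in blood. Aorta 4 lay between the 2 blood libraries, with a log2 difference of -0.58 (SE 0.59, adjusted p = 0.502).

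The paralogs gave a mixed picture. RPL36AL, a retained copy of RPL36A, and RPL26L1, a relative of RPL26, were lower in aorta at -2.42 and -2.17 without blood 2. RPL7L1, a relative of RPL7 that takes part in ribosome assembly, had 54.9, 71.9, 33.7 and 31.9 CPM in aorta and 36.4, 0 and 47.5 CPM in blood, so the groups overlapped (log2 fold change -0.11, SE 0.42, adjusted p = 0.872). RPS27L, a relative of RPS27 that p53 induces, had a value of -0.87 (SE 0.44, adjusted p = 0.134). RPL10L, which replaces RPL10 in male germ cells, stood at 3.23 to 9.80 CPM in aorta and 0.943 and 8.06 CPM in blood 1 and blood 3, and its value was 0.60 (SE 0.72, adjusted p = 0.566). RPL3L, known from striated muscle, was at or below 0.81 CPM in every library and did not pass the low-count filter in any comparison.

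The makeup of the ribosomal protein counts differed between libraries, a measure that library scaling cannot move because all genes of a library share the same scale. RPS24 made up a mean of 2.64% of all ribosomal protein counts in aorta, 5.07% on the microbrush, 8.56% on the wire and 11.0% in blood 1 and blood 3. For RPS2 the order was the opposite, at 14.2% in aorta, 8.0% on the microbrush, 7.95% on the wire and 3.03% in blood. RPS7 took 8.62% in aorta, 4.43% on the microbrush, 3.72% on the wire and 3.03% in blood, and RPL37 took 1.44%, 3.75%, 4.201% and 5.37% in the same order. These genes were picked after their values were seen, and no test was made of their shares.

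The ratio of RPS24 counts to RPS2 counts was 0.232, 0.214, 0.148 and 0.167 in aorta 1 to 4, and 4.201 and 3.19 in blood 1 and blood 3. On the wire it was 0.896, 1.45, 2.12 and 0.500, and on the microbrush 0.252 to 1.55 with a median of 0.693. Aorta lay below every other library and blood above every other library, with the catheter samples between them. Wire 3, with the highest ratio of the catheter libraries, and wire 2 also had the highest red cell marker shares of the wire, 0.901% and 3.24% against 0.450% in wire 1 and 0.203% in wire 4. Microbrush 8, with the highest ratio of the microbrush at 1.55, had a red cell marker share of 0.0716% and a smooth muscle marker share of 0.721%. Microbrush 1, with the highest red cell marker share of the microbrush at 0.342%, had a ratio of 0.381. Smooth muscle markers took 3.39% to 10.9% of counts in microbrush 1, 2, 5, 7 and 9, where the ratio was 0.252 to 0.765. They took 0.614% to 1.38% in microbrush 3, 4, 6, 8 and 10, where it was 0.657 to 1.55, so the ratios of these sets overlapped. Microbrush 7 had the lowest ratio of the catheter libraries and a smooth muscle marker share of 5.29%. Microbrush 5 and 9, with shares of 10.9% and 8.66%, had ratios of 0.524 and 0.538. The part of these cells in the ratio was not tested.

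**Figure D3:**
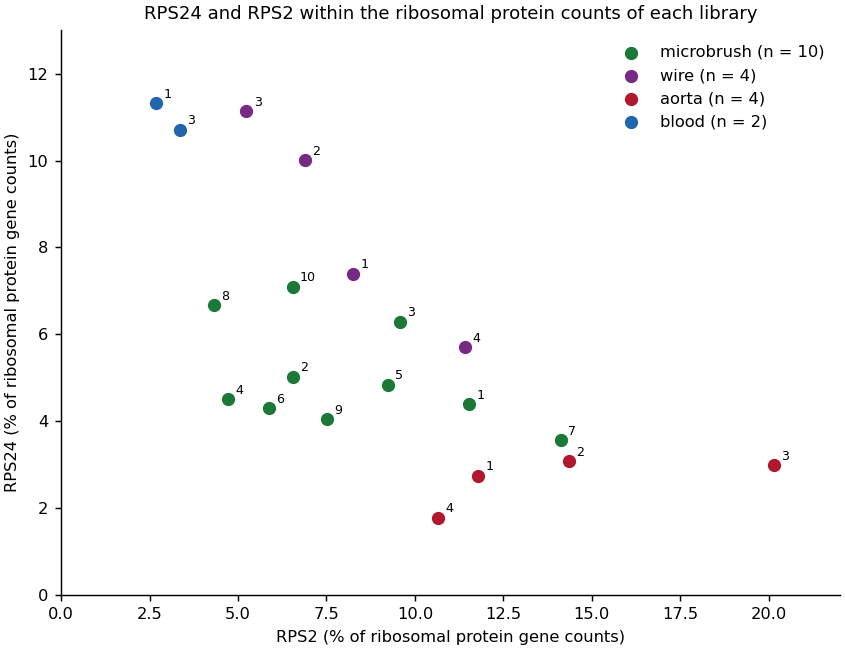
Each point is a library, placed by the percent of its ribosomal protein counts that fell in RPS2 (x axis) and in RPS24 (y axis), and coloured by group; blood 2 has no ribosomal protein count and is absent. Aorta lies at the lower right with 1.78% to 3.08% RPS24, blood 1 and blood 3 at the upper left with 11.3% and 10.7%, and microbrush and wire between them.

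The order of the 51 genes by count was broadly shared between sample types. The Spearman correlation of CPM over genes had a median of 0.914 between pairs of aorta libraries, 0.979 between blood 1 and blood 3, 0.84 between pairs of microbrush libraries, 0.905 between wire and blood and 0.856 between aorta and blood. It is given as a description across genes, which are not replicates and which share their length and base composition in every sample. The ratio of summed large subunit to summed small subunit counts was 0.987 to 1.08 on the wire, 0.845 to 1.15 in aorta, 1.02 and 1.06 in blood 1 and blood 3, and 0.989 to 1.65 on the microbrush. The groups overlapped, and the highest value came from microbrush 4, with 1.28 the next. RPLP1 and RPS24 had the most counts of their subunits over all libraries together. Without them the ratio was 0.796 to 1.02 in aorta and 1.19 in both blood libraries. These groups then no longer overlapped, but the choice of RPS24 favours that outcome. RPS24 took 11.3% and 10.7% of ribosomal protein counts in blood 1 and blood 3. In aorta the most counted small subunit gene was RPS2, at 10.7% to 20.1%, and it was kept. The separation is thus not independent of the RPS24 and RPS2 shares above.

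**Figure D4:**
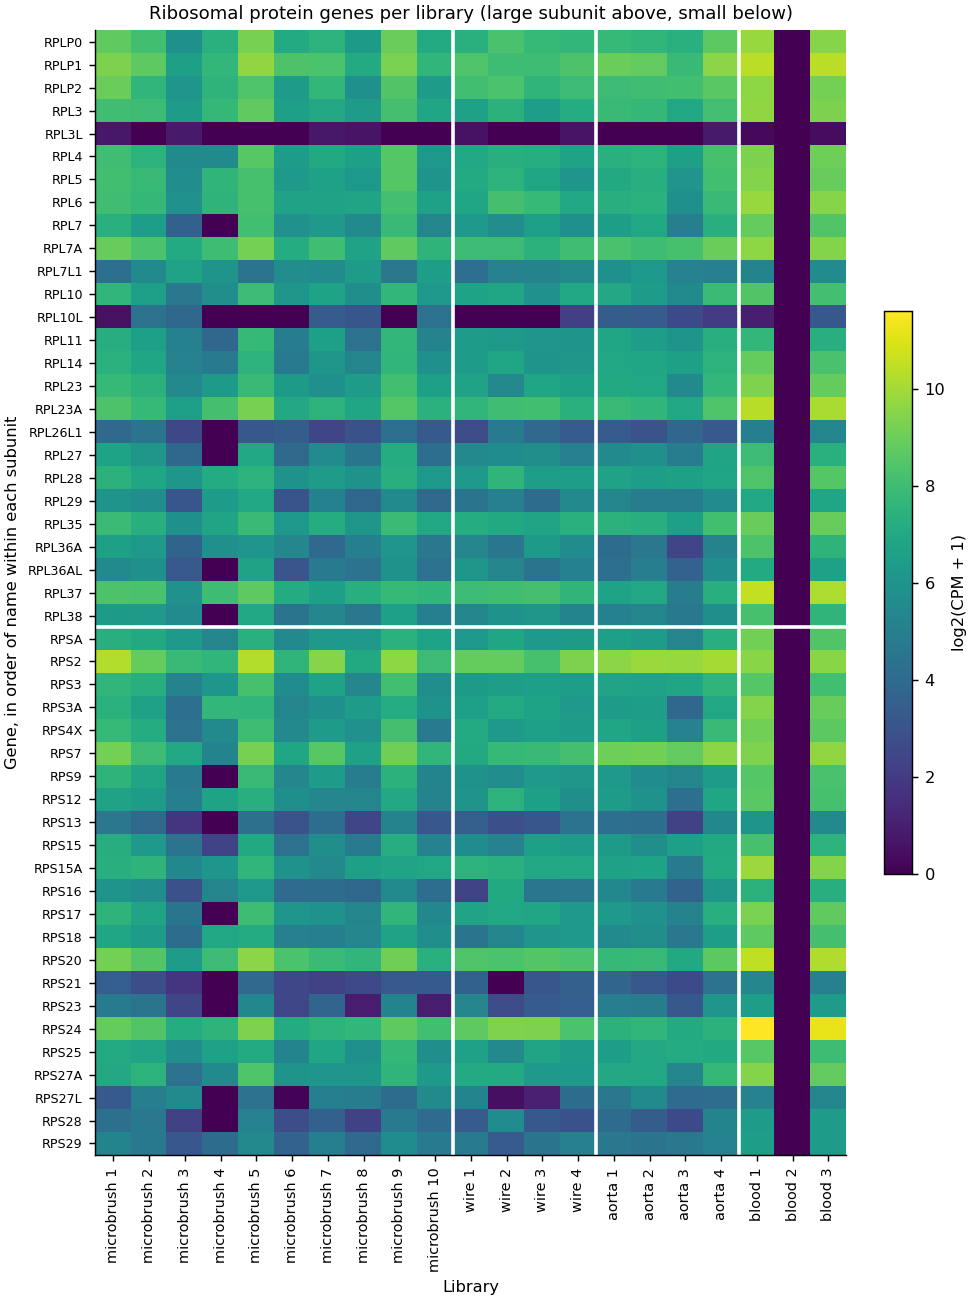
Rows are 49 of the 51 genes by name within each subunit, columns are libraries, and colour is log2(CPM + 1), so colours are to be compared along a row and not between genes of different length. Blood 1 and blood 3 are the brightest for most rows, blood 2 is empty, and microbrush 4 has 14 of these genes at 0.

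Wire against aorta was the only comparison with all its libraries kept in which edgeR called a ribosomal protein gene. RPS24 was higher on the wire, alone among 49 tested (background 3.57% of all genes in either direction, 2.8% higher). That is no larger a share than among all genes. Its levels were 413, 660.0, 627 and 313 CPM on wire 1 to 4 and 134 to 198 CPM in aorta, so the groups did not overlap. After scaling, the means were 782 ± 593 CPM (SD, n = 4) on the wire and 132 ± 31.5 CPM (SD, n = 4) in aorta, with a log2 fold change of 2.56 (SE 0.61, adjusted p = 0.0425). This call was not stable: over 13 alternatives the adjusted p ran from 0.00998 to 0.486, and it passed in 4 of them, while the log2 fold change stayed between 1.92 and 2.75. DESeq2 also called RPS24 alone (6.75% of all genes). Leaving out wire 1, wire 2 or any aorta library ended the edgeR call.

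RPL37 also lay above aorta on all 4 wire libraries, at 244, 261, 283 and 189 CPM, with a log2 fold change of 2.17 (SE 0.66, adjusted p = 0.119). RPL36A had a value of 2.28 (SE 0.84, adjusted p = 0.225) and RPS15A of 1.46 (SE 0.58, adjusted p = 0.282). These are the genes that were also the furthest below blood in aorta, and both comparisons use the same aorta libraries. All 4 wire libraries lay above aorta in CPM for 2 of the 51 genes, RPL37 and RPS24 (2.83% of all genes), and below it for 3, RPS2, RPS3 and RPS7 (19.4% of all genes). After scaling, the differences for RPS2 and RPS7 were -0.26 and -0.55 and that for RPS3 was 0.31, none past the test (adjusted p = 0.929, 0.857 and 0.924). The median over the 49 genes was 0.53, with 44 above 0, beside a median of -0.29 over all genes tested. It was 0.20 without wire 3, with 31 of 50 above 0, 0.24 without aorta 3 and 1.09 without aorta 4. Red cell markers took 0.203% to 3.24% of wire counts and at most 0.00817% of aorta counts. Platelet markers took 0.174% to 0.416% on the wire and 0.00463% to 0.0103% in aorta. Smooth muscle markers went the other way, at 0.401% to 0.870% on the wire and 3.53% to 5.68% in aorta. So did fibroblast markers, at 0.00120% to 0.0390% and 0.372% to 0.652%. The part of any of these cell types in the RPS24 difference was not tested.

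Both catheter devices had ribosomal protein levels below those of blood 1 and blood 3 on the unscaled scale, but no single gene passed a test. In the CPM of all 4 wire libraries, 47 of 51 genes lay below both blood libraries (27% of all genes) and none above both (1.54%), and the 4 that overlapped were all paralogs, RPL10L, RPL3L, RPL7L1 and RPS27L. In the CPM of all 10 microbrush libraries, 42 of 51 lay below both (7.51% of all genes). RPS2, RPS3, RPL11, RPL29 and the paralogs RPL10L, RPL3L, RPL7L1, RPS27L and RPL36AL overlapped.

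With blood 2 kept, edgeR called 0 of 49 genes for wire against blood (0% of all genes) and 0 of 50 for microbrush against blood (0.0119%), and none had an unadjusted p under 0.05. DESeq2 also called none in either comparison, beside 0.38% and 1.75% of all genes, but it gave no adjusted p for 12 and 8 of the 51 genes. Without blood 2, and without microbrush 4, edgeR again called none (0.0486% of all genes for the wire, all of them higher on the wire, and 0% for the microbrush), while the unadjusted p was under 0.05 for 24 and 26 genes. The wire median was then -1.63, beside -0.34 over all genes, and the microbrush median was -1.78, beside -0.02. With all libraries the medians were -0.93 on the wire and -0.95 on the microbrush, and with blood 1 alone left out they were 0.01, with 27 of 50 genes above 0, and -0.17.

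RPS15A and RPS24 had the smallest p of the microbrush comparison without those libraries. RPS15A was at 41.4 to 198 CPM on the microbrush, with a median of 100.7, and at 917 and 697 CPM in blood 1 and blood 3, with a fold change of -2.93 on the log2 scale (SE 0.76, adjusted p = 0.234). For RPS24 it was -3.16 (SE 0.84, adjusted p = 0.246). On the wire, RPS18, which sits in the head of the small subunit, had a value of -2.22 (SE 0.70, adjusted p = 0.355). RPS2 differed little from blood in either, at -0.25 (SE 1.10) on the microbrush and -0.19 (SE 0.74) on the wire. RPL7L1 had values of 0.21 (SE 0.65) and 0.29 (SE 0.996).

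The comparison the device was built for, microbrush against bare wire, showed no ribosomal protein gene past the test. None of 50 was called by edgeR (0% of all genes, none of the 50 at an unadjusted p under 0.05 beside 518 of 16439 genes overall) or by DESeq2 (0.546% of all genes), and in CPM no gene separated the groups in either direction (0.0324% and 0.00925% of all genes). The median log2 fold change was -0.23, beside 0.17 over all genes, with 40 of 50 genes below 0. That sign was not stable: the median was 0.02 without microbrush 4 and 0.17 without wire 3. RPS24 had the lowest value, -1.35 (SE 0.77, adjusted p = 0.9998), with 306 ± 221 CPM (SD, n = 10) on the microbrush and 780 ± 587 CPM (SD, n = 4) on the wire. RPL10L had the highest, 2.26, from levels of 0 to 19.7 CPM on the microbrush and of 3.60 CPM in wire 4 alone. RPS2 had -0.05.

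Microbrush against aorta also gave 0 of 50 calls by edgeR, with no gene at an unadjusted p under 0.05, and none by DESeq2 (0.125% and 0.881% of all genes called, for edgeR 0.0596% higher and 0.0656% lower). No gene separated the groups in CPM (0.525% and 1.23% of all genes). The median was 0.33, beside -0.17 over all genes, but it turned to -0.21 with RLE scaling and to -0.20 with DESeq2. The highest values were those of RPL36A, 1.70 (SE 0.86), RPL37, 1.40 (SE 0.80), and RPS24, 1.16 (SE 0.76), and the lowest those of RPS23, which sits at the decoding centre, -0.85 (SE 0.99), and RPS7, -0.61 (SE 0.78), all with an adjusted p of 0.9998.

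The 10 microbrush libraries differed widely among themselves. Their summed share was 1.06%, 0.703%, 0.231%, 0.417%, 1.30%, 0.329%, 0.510%, 0.301%, 1.05% and 0.380% in microbrush 1 to 10. Microbrush 5 was the highest of the 10 for 31 of the 51 genes, microbrush 9 for 9 and microbrush 1 for 5. Microbrush 3 was alone the lowest for 22 and microbrush 4 for 17. RPLP1, for instance, ran from 93.8 CPM in microbrush 3 to 806 CPM in microbrush 5, with a median of 324, and RPS2 from 129.8 CPM in microbrush 8 to 1229 CPM in microbrush 1, with a median of 355. RPL7L1 had another pattern: its lowest levels, 18.0, 20.98 and 23.5 CPM, were in microbrush 1, 5 and 9, and its highest, 100.8 CPM, in microbrush 3. Smooth muscle markers took 3.39%, 3.84%, 10.9%, 5.29% and 8.66% of counts in microbrush 1, 2, 5, 7 and 9, and 0.614% to 1.38% in the other 5. The summed ribosomal protein share was 0.510% to 1.30% in the former and 0.231% to 0.417% in the latter. This split was made after the values were seen. The part of smooth muscle in the ribosomal protein share was not tested. Within aorta, aorta 4 was alone the highest of its group for 45 genes and aorta 3 alone the lowest for 38. These counts, like those of the microbrush, are on unscaled CPM. The share over all genes was not computed, so they are not read as particular to ribosomal protein genes.

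Organ made no difference that passed the test. The 5 kidney libraries had shares of 1.06%, 0.703%, 0.231%, 1.30% and 0.380%, and the 5 liver libraries 0.417%, 0.329%, 0.510%, 0.301% and 1.05%, so the groups overlapped. None of 50 genes passed by edgeR (0% of all genes, none of the 50 at an unadjusted p under 0.05 beside 238 of 15013 genes overall), DESeq2 called none (0% of all genes), and no gene separated the organs in CPM (0.968% and 0.0279% of all genes). The median was 0.30 toward kidney, below the 0.50 over all genes, and it was -0.22 without microbrush 1 and -0.02 without microbrush 7. RPS2 had 0.70 (SE 0.96), while RPL7L1 had -0.90 (SE 0.86) toward liver, both with an adjusted p of 0.9998.

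**Figure D5:**
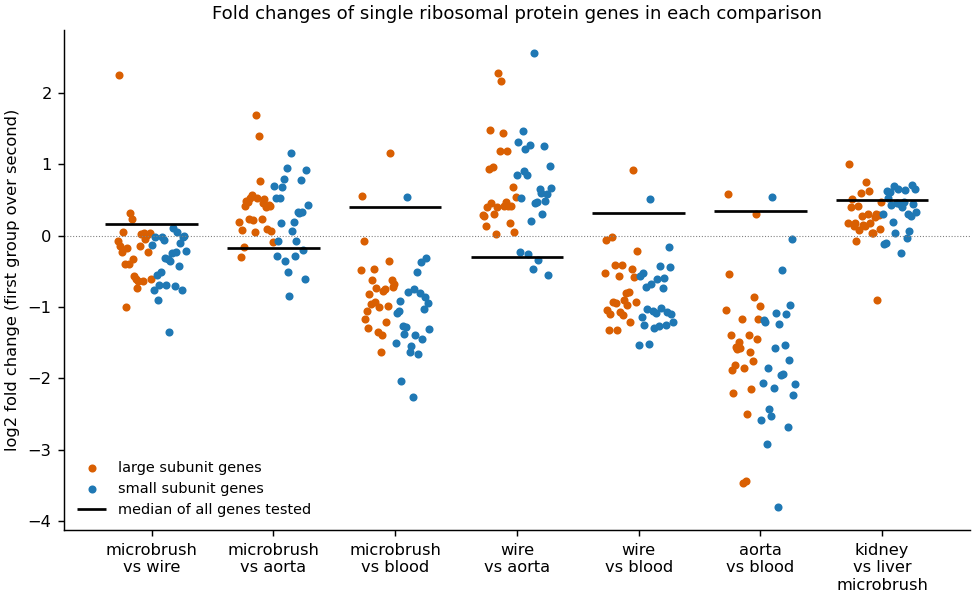
Each point is a ribosomal protein gene, the y axis is its log2 fold change in the comparison named below it (first group over second, all libraries kept), colours give the subunit and black lines the median of all genes tested. The points lie mostly below the black line in the comparisons with blood and above it for wire against aorta, and RPS24 is the highest point there (2.56) and the lowest for aorta against blood (-3.81).

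Other genes of the translation machinery were described from lists of translation factors and TOP genes, of ribosome assembly genes and of mitochondrial ribosomal proteins, the last of which build the separate ribosome inside mitochondria. For aorta against blood without blood 2, 16 of 24 translation and TOP genes were lower in aorta and 1, VIM, was higher, beside 18.7% and 9.82% of all genes. Their median was -1.79, beside 0.15 over all genes. TPT1, a TOP gene that encodes the tumour protein TCTP, was at -5.15 (SE 0.69, adjusted p = 4.71e-12), the poly(A)-binding protein gene PABPC1 at -2.94 and EIF3H, a subunit of initiation factor 3, at -2.76. VIM encodes the intermediate filament vimentin of mesenchymal cells.

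Of 37 ribosome assembly genes in the same comparison, 19 were lower in aorta and none was higher, beside the same 18.7% and 9.82% of all genes, and the median was -1.10. They included MYC, a transcription factor that drives ribosome production, at -2.08, the nucleolar GTPase gene GNL3 at -1.88 and POLR1A, the catalytic subunit of RNA polymerase I, at -1.86. Of 62 mitochondrial ribosomal protein genes, 10 were lower in aorta and 1 higher, no larger a share than the 18.7% and 9.82% of all genes, with a median of -0.61. The smallest p belonged to MRPS25 at -2.82, MRPS5 at -2.48 and MRPS34 at -2.21. With blood 2 kept, none of the genes of these 3 lists passed, and their medians were -1.32, -0.73 and -0.35. The count of cytosolic over mitochondrial ribosomal protein transcripts was 24.2 and 16.04 in blood 1 and blood 3, 4.40 to 12.6 in aorta, 6.90 to 18.7 on the wire and 1.31 to 19.7 on the microbrush. Aorta and blood did not overlap, and wire and microbrush overlapped with both. The overlap with blood came from wire 3 and microbrush 4 alone. The next highest values were 10.1 in wire 1 and 14.9 in microbrush 1.

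For wire against aorta, 1 of 24 translation and TOP genes passed, VIM, lower on the wire at -3.40 (SE 0.72, adjusted p = 0.0279), beside 0.764% of all genes. TPT1 had 3.17 (SE 0.82, adjusted p = 0.0629). Of 36 ribosome assembly genes, 1 was higher on the wire, TCOF1, the nucleolar factor treacle, at 2.16 (SE 0.51, adjusted p = 0.0419), a share equal to the 2.8% of all genes higher there, and none of 52 mitochondrial ribosomal protein genes passed. In the comparisons of microbrush with wire, microbrush with aorta and kidney with liver, none of the genes on these lists passed.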

How the data were processed

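RNA of 21 pig samples was isolated with a down-scaled RNAdvance Tissue protocol and sequenced as SMARTer Pico libraries, per the labels' protocols. Salmon, DESeq2 and the Sscrofa11.1 build are named, per the submitters' processing notes; versions, annotation release and trimming are not given in the sources used here. The authors deposited estimated counts per Ensembl gene, which were not scaled between libraries; 11.9% of the values were not whole, and they were rounded for the tests. Symbols came from a supplied list of gene names, and coordinates from RefSeq by symbol (51 of 51 matched). No pair of libraries was a copy: over 210 pairs the lowest chi-square per degree of freedom was 5.91.

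The members, the other gene lists and the libraries left out were chosen with earlier results of these data known. For each comparison a model over all genes was fitted to the libraries compared, in edgeR 4.0.16 (R 4.3.3; filterByExpr with a minimum count of 10, TMM scaling, robust quasi-likelihood test), with Benjamini-Hochberg adjustment over all genes tested and calls at an adjusted p under 0.05. The script was tested on simulated data. Fold changes are log2 of the first group named over the second. CPM per library are counts per 1000000 of the library's total, while means ± SD with a fold change are TMM-scaled within that comparison. Background percentages are the share of all genes tested, or of all genes with a count in either group, that met the same rule. Named genes are those with the smallest p per direction (up to 6 past the threshold, otherwise 3), a set chosen by role, and, from each other list, the 3 genes with the smallest p. The alternatives were RLE scaling, no low-count filter, DESeq2 1.42.0, leaving out haemoglobin genes and the 2 abundant identifiers, pig as a replicate block, a common fit of all libraries, leaving out microbrush 4 and blood 2, and leaving out each library in turn in groups of up to 5. Libraries of a group share pigs by their labels and carry no pairing numbers, so pig entered only as a block. Single values of 2 members are not reported here; they stay in all counts, sums and medians.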

Additional observations from a re-analysis of the deposited data

Results flagged for a closer look

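Within groups of 4 to 10 libraries, 10 sets of values (the summed share, the subunit ratio and the CPM of 33 members) had a library whose gap to its nearest neighbour passed Dixon's 95% limit; these were 9.17% of the sets looked at, and chance flags about 1 in 20. The ribosomal protein share was 0.659% in wire 2, with 0.563% the nearest of the wire, and 1.05% in microbrush 9, with 0.510% the nearest of the liver microbrush libraries. The ratio of large to small subunit counts was 1.65 in microbrush 4, with 1.28 the nearest, and microbrush 4 is the library with 15 genes at 0. Aorta 4 stood apart for RPLP2 at 398 CPM (nearest 266), for RPS3 at 188 CPM (nearest 111.03) and for RPL3L at 0.806 CPM, where the other aorta libraries were at 0. Wire 2 stood apart for RPS28 at 49.3 CPM (nearest 8.90) and for RPSA at 112.4 CPM (nearest 77.8). Wire 1 stood apart for RPS23 at 37.8 CPM (nearest 10.2), and wire 4 for RPL10L at 3.60 CPM, where the other wire libraries were at 0.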

How the results depend on the processing

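With pig as a replicate block, 0 members passed in microbrush against wire, microbrush against blood, wire against blood and kidney against liver, as without it, so the block changed no call; no paired analysis was possible with aorta because all of it came from another pig. The count of members called for wire against aorta, 1 as reported, was 0 with RLE scaling, 0 with haemoglobin genes and the 2 abundant identifiers left out, and 0 in a common fit of all libraries, and it ran from 0 to 2 when each library was left out in turn. Without wire 4 it was 2, RPS24 and RPL10L. For aorta against blood the count was 2 with DESeq2 and 0 to 44 over leaving out each library, where only the fit without blood 2 gave 44. Leaving out microbrush 4 and blood 2 is the same fit there, because no microbrush library takes part. Wire against blood and, for microbrush 4, kidney against liver hold such a repeated fit too. The wire's mean share moved from 0.582% to 0.945% with haemoglobin genes and the 2 identifiers left out of the total, and to 1.28% over named genes alone, where aorta's mean moved to 1.02%. Without RPLP1 and RPS24, picked by counts over all libraries together, the subunit ratio was 1.12 on the wire, 1.19 in blood and 0.934 in aorta. The cause of these shifts was not tested. No count or called member value reversed. Shares and ratios were followed within each group only, which cannot show a reversed order of groups. The wire's mean share was below the 0.680% of aorta and the 0.629% of the microbrush as reported. With haemoglobin genes and the 2 identifiers left out, it was above their 0.728% and 0.780%. Blood 1 and blood 3 were then at 3.03% and 2.38%, beside 0.748% to 1.13% in the wire libraries and 0.245% to 1.57% in those of the microbrush. The median over the members changed sign in microbrush against aorta with RLE scaling (-0.21) and DESeq2 (-0.20). It also did so in microbrush against wire without microbrush 4 (0.02) or wire 3 (0.17). The same held in wire against blood without blood 1 (0.01), and in kidney against liver without microbrush 1 (-0.22) or microbrush 7 (-0.02). Of 555 values of named members, 509 kept their direction and their side of the threshold, 9 lost a call, 12 gained one and 25 changed sign without a call. The repeated fits are entered under both settings in these numbers, and most of the gained calls come from the fit of aorta against blood without blood 2. RLE scaling moved the median of all genes from 0.17 to 0.60 in microbrush against wire, and DESeq2 moved it to 0.71. Blood 2, at 5634 counts, held 0 member counts where the share of blood 3 would give 123. Only 2 usable blood libraries and 1 aorta pig limit every statement on blood or aorta.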
